A study of Mus musculus with 6 samples.

Results

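Lin28a and Lin28b, 4 mRNAs known as targets of the let-7 microRNAs (Trim71, Hmga2, Igf2bp1 and Igf2bp2) and 4 genes of the microRNA processing machinery (Drosha, Dgcr8, Xpo5 and Dicer1) were followed from mouse embryonic stem cells (ESCs) to the cells that retinoic acid (RA) made from them, which the study calls neuronal cells (NCs). The 10 genes were taken by name from the deposited RNA-seq table, where each has 1 row, so that they are 10 of its 23235 rows. Both conditions came from the mouse ESC line E14Tg2a, used between passages 37 and 40. ESCs grew with leukemia inhibitory factor (LIF), which keeps them pluripotent, and NCs were LIF-free monolayers that had received 1 μM RA for 48 h (2 days). Each condition had 3 samples, and the table gives 1 value per gene and condition, the authors' FPKM (fragments per kilobase of transcript, scaled to all mapped fragments) estimated over those samples. It holds no values of single samples, and the authors' own test columns were not used, so every ratio below is a description of 2 values and none carries a test.

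LIN28A and LIN28B are RNA-binding proteins of early embryonic cells that bind the loop of let-7 precursors and keep them from maturing, with LIN28A recruiting uridylyl transferases that tag the precursor for decay. Mature let-7 in turn pairs through its seed, bases 2 to 8, with sites in the 3′ UTRs of mRNAs, among them those of Lin28a and Lin28b, so that the proteins and the microRNAs oppose each other. Every canonical microRNA also depends on shared machinery. In the nucleus DROSHA, with its RNA-binding partner DGCR8, cuts the hairpin out of the primary transcript, exportin 5 (Xpo5) carries the hairpin to the cytoplasm, and DICER1 removes the loop. In embryonic cells this circuit is known for accompanying the exit from pluripotency, when let-7 accumulates.

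The seed that defines the family was read from RefSeq's table of mature microRNAs (GRCm38.p6). Of the 11 mature let-7 and miR-98 sequences in it, 10 carried the seed GAGGUAG, and let-7j carried GAGGUAU. Of these, let-7a, let-7d, let-7f, let-7g and let-7j are shown, 5′ to 3′ with the seed in capitals, because the seed is the stretch that the sites of the 10 genes were searched for.
let-7a-5p: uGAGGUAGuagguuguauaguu
let-7d-5p: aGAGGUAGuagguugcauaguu
let-7f-5p: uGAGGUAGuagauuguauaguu
let-7g-5p: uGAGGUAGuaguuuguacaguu
let-7j: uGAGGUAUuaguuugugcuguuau

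LIN28 proteins are known to recognise GGAG in the loop of let-7 precursors. A search for GGAG between the mature arms, on the strand of the hairpin, found it in 9 of 12 let-7 and miR-98 hairpins, and in 52 of 644 (8.07%) of all mouse hairpins with both arms in the table. The 3 without it were Mirlet7b, Mirlet7c-2 and Mir98. Hairpins of let-7j and let-7k, whose genes are named Mir7j and Mir7k, were not among the 12. Hairpins of the cluster on chromosome 13 and 1 hairpin that lacks the motif are shown with GGAG in capitals, since 2 of the 3 let-7 rows above 0 in the RNA-seq table lie in that cluster. A match is a description of the letters and not a measured binding site.
Mirlet7d (chr13:48536012-48536114, minus strand): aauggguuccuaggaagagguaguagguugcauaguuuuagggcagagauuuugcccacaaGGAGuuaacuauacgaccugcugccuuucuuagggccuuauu
Mirlet7f-1 (chr13:48537829-48537917, minus strand): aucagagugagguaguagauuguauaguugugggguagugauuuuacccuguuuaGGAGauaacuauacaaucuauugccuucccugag
Mirlet7b (chr15:85707319-85707403, plus strand): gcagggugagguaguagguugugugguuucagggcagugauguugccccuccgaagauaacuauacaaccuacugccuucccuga

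The match of that seed in an mRNA is CTACCTC, and a following A, which faces the microRNA's own position 1, makes it an 8-base match. In the 3′ UTRs of the 10 genes, read from the longest coding transcript of GENCODE M21 on GRCm38, there were 19 matches on the mRNA strand, 12 of them of 8 bases. They lay in 6 of the 10 genes, all 6 of which had been listed for Lin28 or as let-7 targets. Trim71, Lin28b, Hmga2 and Igf2bp1 had 4 each, Lin28a had 2 and Igf2bp2 had 1. None of these letters occurred in the annotated 3′ UTRs of Drosha, Dgcr8, Xpo5 or Dicer1. Of the 12384 expressed genes with an annotated 3′ UTR, 1154 (9.32%) held at least 1 match and 10 (0.0807%) held 4 or more. One site of each of the 6 genes, and the closest pair of sites in Trim71, are shown with 23 bases, the match in capitals and every position in the 3′ UTR on the minus strand of GRCm38.
Lin28a (chr4:134005186-134005208): cagcctgttgaaCTACCTCAttt
Lin28b (chr10:45381019-45381041): cgggcgggaagtCTACCTCAtgc
Hmga2 (chr10:120364221-120364243): gacattcaatttCTACCTCAgca
Igf2bp1 (chr11:95961775-95961797): gtgcgaagtaaaCTACCTCAagg
Igf2bp2 (chr16:22059470-22059492): cacaaataaaagCTACCTCAggt
Trim71, site 3 (chr9:114509044-114509066): agtatggattttCTACCTCAatt
Trim71, site 4 (chr9:114509018-114509040): gcaaaaagttgtCTACCTCAcgt

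Site density set the Lin28 and target mRNAs apart from the average 3′ UTR. Per kilobase of 3′ UTR, Hmga2 had 1.33 matches, Lin28b 0.900, Trim71 0.726, Lin28a 0.721, Igf2bp1 0.631 and Igf2bp2 0.561, against 0.0751 over all expressed genes. Since most of these genes were picked as known let-7 targets, the matches are no independent finding. The 8-base form was unevenly spread among them. All 4 matches in Trim71 and both in Lin28a had the A, as did 3 of 4 in Igf2bp1, but only 1 of 4 in Hmga2 and 1 of 4 in Lin28b. In Hmga2 and Lin28b that one site was the closest to the stop codon, starting at base 58 and base 36 of the 3′ UTR.

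With the sequences in view, the levels of the 10 genes were as follows. All 10 were expressed in both conditions, with between 7.56 and 122 FPKM in ESCs and between 13.9 and 164 FPKM in NCs. Their median was 24.0 FPKM in ESCs against 44.6 in NCs, beside medians of 10.7 and 10.8 over the 13290 genes with at least 1 FPKM in either condition. Hmga2, Dgcr8, Lin28b and Igf2bp1 were at least 2-fold higher in NCs, none of the 10 was at least 2-fold lower, and the remaining 6 lay within 2-fold. Over all 13290 genes, 12.5% were at least 2-fold higher in NCs and 10.6% were at least 2-fold lower, shares that became 17.7% and 7.37% when both columns were scaled to the same sum. The median log2 ratio of NCs over ESCs was 0.26 for the 10 genes and -0.03 for all. With 10 genes picked for their roles, these shares describe the genes and are not a test of them.

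**Figure D1:**
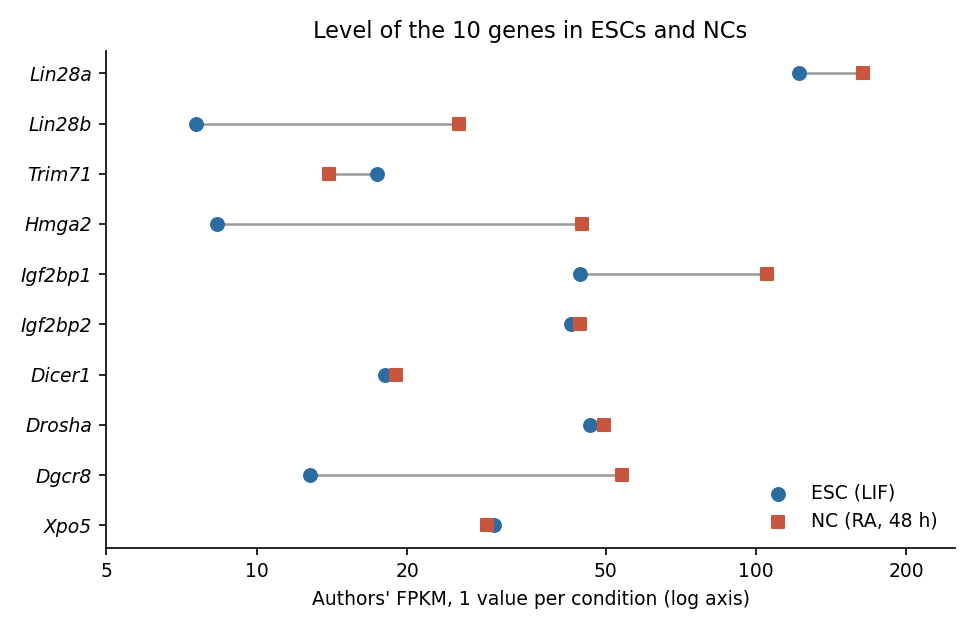
The authors' FPKM of each of the 10 genes on a log axis, with circles for ESCs and squares for NCs, 1 value per condition and hence no error bars. Hmga2, Dgcr8, Lin28b and Igf2bp1 have the wide gaps (2.37-fold to 5.38-fold), and Igf2bp2, Dicer1, Drosha and Xpo5 nearly coincide.

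Lin28a, the paralog typical of ESCs, had the highest level of the 10 genes in both conditions. It stood at 122 FPKM in ESCs compared with 164 in NCs, 1.34-fold higher (log2 ratio 0.43), at the 94.3rd and 96.3rd percentile of expressed genes. Its mRNA therefore remained among the most abundant after 48 h of RA, while the pluripotency genes listed further on were many-fold lower. Lin28a is at chr4:134003330-134018841 on the minus strand, with 4 exons and a 3′ UTR of 2775 bases in a transcript of 3505.

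Lin28b, which shares the let-7 binding activity of its paralog, was the lowest of the 10 genes in ESCs, with 7.56 FPKM. In NCs it had 25.4 FPKM, 3.36-fold higher (log2 ratio 1.75), and it moved from the 41.3rd to the 73.4th percentile of expressed genes. The excess of Lin28a over Lin28b was 16.1-fold in ESCs and 6.45-fold in NCs on the FPKM scale, which corrects for transcript length. Lin28b made up 5.83% of the summed FPKM of the pair in ESCs and 13.4% in NCs, so that Lin28a supplied most Lin28 mRNA in both. The gene spans chr10:45376620-45486395 on the minus strand, and its transcript shared no 50-base word with other genes. The 3 rows closest to it in the plane of log2(FPKM + 1) in both conditions were Fgfr2, Cdkn2a and Irs2, at distances of 0.07, 0.08 and 0.08.

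Hmga2, an architectural chromatin protein of embryonic cells and a classical let-7 target, had the highest ratio of the 10 genes. Its level was 8.34 FPKM in ESCs against 44.9 in NCs, 5.38-fold higher (log2 ratio 2.43). That ratio lies at the 96.2nd percentile of expressed genes. Its relative Hmga1 was far more abundant and was lower in NCs, with 895 FPKM in ESCs compared with 722 in NCs, and the excess of Hmga1 over Hmga2 was 107-fold in ESCs and 16.1-fold in NCs. Hmga2 (chr10:120361275-120476469, minus strand) shares 4.36% of its 50-base words with other transcripts, most of them with the antisense gene 1700006J14Rik, which has no row in the table. The nearest rows were Grb10, Igf2 and Cpe, at distances of 0.19, 0.26 and 0.38. Of these, Igf2, which encodes a fetal growth factor, had 6.97 FPKM in ESCs against 48.6 in NCs.

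Igf2bp1 and Igf2bp2 encode RNA-binding proteins that stabilise and localise mRNAs, and they parted in NCs. In ESCs they were level, with 44.4 FPKM for Igf2bp1 and 42.6 FPKM for Igf2bp2. In NCs Igf2bp1 had 105.3 FPKM, 2.37-fold higher (log2 ratio 1.25), whereas Igf2bp2 had 44.3 FPKM, a 1.04-fold difference (log2 ratio 0.06). The ratio of Igf2bp1 to Igf2bp2 was 1.04 in ESCs and 2.38 in NCs. Igf2bp3, the remaining family member and itself a let-7 target, had 27.8 FPKM in ESCs compared with 64.4 in NCs, 2.31-fold higher, so that Igf2bp1 and Igf2bp3 kept a ratio of 1.60 in ESCs and 1.64 in NCs. Igf2bp1 is at chr11:95957163-96005940 and Igf2bp2 at chr16:22059009-22163299, both on the minus strand. The rows nearest to Igf2bp1 were Krt18, Mir92-2 and H1f0, at distances of 0.05, 0.13 and 0.13.

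Trim71 was the only target gene among the 10 with a lower value in NCs. It encodes a ubiquitin ligase and RNA-binding protein of ESCs whose C. elegans counterpart, lin-41, is a textbook let-7 target. Its level was 17.4 FPKM in ESCs against 13.9 in NCs, 1.25-fold lower (log2 ratio -0.32), and it ranked 7th of the 10 genes in ESCs and last in NCs. Hmga2, Lin28b and Igf2bp1 have as many let-7 matches as Trim71 and were 2.37-fold to 5.38-fold higher, so equal counts went with unlike ratios. Matches of 8 bases numbered 1 in Hmga2, 1 in Lin28b, 3 in Igf2bp1 and 4 in Trim71. The log2 ratios in that order were 2.43, 1.75, 1.25 and -0.32. Lin28a, with 2 such matches, had 0.43, and Igf2bp2, with 1, had 0.06. A link between the matches and the ratios was not tested. Of 3 relatives with the same TRIM and NHL domains, Trim2 had a 2.21-fold lower level, 8.04 FPKM in ESCs compared with 3.63 in NCs, and Trim3 and Trim32 lay within 2-fold. Trim2 was no longer past 2-fold with a pseudocount of 1 or with both columns scaled to the same sum. Trim71 is at chr9:114507133-114564369 on the minus strand and has a 3′ UTR of 5512 bases.

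**Figure D2:**
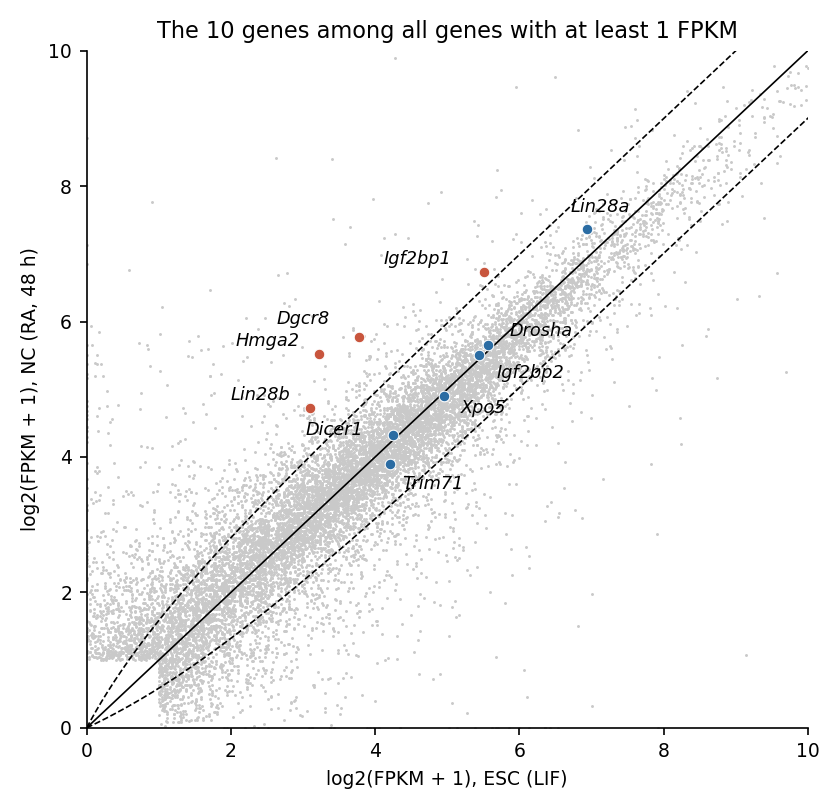
All genes with at least 1 FPKM in either condition (grey points) by log2(FPKM + 1) in ESCs and NCs, with the 10 genes named, the solid line at equal levels and dashed lines at 2-fold. Lin28b, Hmga2, Dgcr8 and Igf2bp1 (red) lie above the upper dashed line and the other 6 (blue) between the dashed lines, and points beyond 10 on either axis are not drawn.

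Of the processing genes, Dgcr8 alone was more than 2-fold apart between the conditions. Drosha, the nuclease, had 46.5 FPKM in ESCs against 49.6 in NCs, a 1.07-fold difference (log2 ratio 0.09). Dgcr8, its RNA-binding partner, had 12.8 FPKM in ESCs compared with 53.9 in NCs, 4.22-fold higher (log2 ratio 2.08). Drosha mRNA was thus 3.64 times as abundant as Dgcr8 mRNA in ESCs, and 0.920 times in NCs. By rank, Dgcr8 was 8th of the 10 genes in ESCs and the third in NCs, behind Lin28a and Igf2bp1.

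The Dgcr8 value is the least certain of the 10, because its transcript overlaps other genes. The gene is at chr16:18253948-18289246 on the minus strand, and 26.3% of its 50-base words also occur elsewhere in the transcriptome, against at most 4.36% for any other of the 10. Of the 1124 shared words, 776 are shared with Trmt2a, a tRNA methyltransferase gene that runs into its 3′ end from the opposite strand. Trmt2a had 12.7 FPKM in ESCs against 17.1 in NCs, and whether the library kept strand is not given in the sources used here, so reads of the overlap cannot be told apart. A gene model on the same strand, Gm49776, also overlaps it and has no row. The flanking genes Ranbp1 (342 FPKM in ESCs compared with 385 in NCs) and Tango2 (7.79 and 8.53 FPKM) differed by less than 2-fold. The rows nearest to Dgcr8 were Ier5l, Mir664 and Ndn, at distances of 0.06, 0.12 and 0.16.

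DROSHA and DGCR8 are known to cut hairpins in the Dgcr8 mRNA itself, which links the level of this mRNA to the activity of the complex. The hairpin annotated as Mir1306 lies in exon 2 of the Dgcr8 transcript, with all of its 79 bases in the coding sequence. It is shown from RefSeq's table with the mature miR-1306-3p, of 21 bases, in capitals.
Mir1306 (chr16:18284239-18284317, minus strand): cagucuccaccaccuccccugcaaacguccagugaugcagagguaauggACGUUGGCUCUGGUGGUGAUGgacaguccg

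Xpo5 and Dicer1, which act after the nuclear cut, had near-equal levels in both conditions. Xpo5, the export carrier, had 29.9 FPKM in ESCs against 28.9 in NCs, a difference of 1.04-fold (log2 ratio -0.05). Dicer1, the cytoplasmic nuclease, had 18.1 FPKM in ESCs compared with 19.0 in NCs, a difference of 1.05-fold (log2 ratio 0.07). Without a spread between samples these small differences cannot be called equal or unequal. Drosha is at chr15:12824815-12935291 and Xpo5 at chr17:46202782-46243598 on the plus strand, and Dicer1 is at chr12:104687742-104751952 on the minus strand.

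The order of the 10 genes by FPKM showed the same split. In ESCs Lin28a was followed by Drosha, Igf2bp1, Igf2bp2, Xpo5, Dicer1, Trim71, Dgcr8, Hmga2 and Lin28b. In NCs the order was Lin28a, Igf2bp1, Dgcr8, Drosha, Hmga2, Igf2bp2, Xpo5, Lin28b, Dicer1 and Trim71. The genes lowest in ESCs, Lin28b, Hmga2 and Dgcr8, were those with the highest ratios. Because the ESC value is the denominator of the ratio, a low ESC level and a high ratio are linked by construction. Neighbours such as Igf2bp2 (44.3 FPKM) and Hmga2 (44.9 FPKM) in NCs cannot be ranked apart without a spread.

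Genes that work beside the 10 were taken from lists by role, and those closest to the processing enzymes lay within 2-fold. The 6 genes listed beside DROSHA (Ddx5, Ddx17, Srrt, Khsrp, Hnrnpa1 and Adar) had no member past 2-fold. The same held for the 3 partners of export and dicing (Ran, Tarbp2 and Prkra). The medians of these lists were -0.14 and -0.17 on the log2 scale. Khsrp, an RNA-binding protein that promotes let-7 maturation, had 59.3 FPKM in ESCs against 46.3 in NCs. All 6 genes listed beside DROSHA had the lower value in NCs. When both columns were scaled to the same sum only 1 of 6 did, so no direction is given for them.

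Among the 8 effectors of silencing, the Argonautes, the GW182 proteins that recruit the decay machinery and the helicase Mov10, 1 was higher, 1 lower and 6 within 2-fold. Mov10 was 2.76-fold lower, with 42.9 FPKM in ESCs compared with 15.5 in NCs. Ago4, which the table lists as Eif2c4, was 2.31-fold higher at a low level, with 0.504 FPKM in ESCs against 1.16 in NCs. It passed the limit of 1 FPKM only in NCs, and it was no longer past 2-fold with a pseudocount of 1, and a limit of 5 FPKM leaves it out. Ago2, the Argonaute that can cut its target and is listed as Eif2c2, had 23.7 FPKM in ESCs compared with 19.1 in NCs. Tnrc6b, a GW182 protein, had 43.6 FPKM in ESCs against 74.4 in NCs, 1.71-fold apart.

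The 3 genes that act on let-7 precursors held back by LIN28 all lay within 2-fold. Zcchc11, the uridylyl transferase known as the main partner of LIN28A, had 18.6 FPKM in ESCs compared with 28.9 in NCs, 1.56-fold higher. Its relative Zcchc6 had 10.7 FPKM in ESCs against 9.72 in NCs, and Dis3l2, the nuclease that degrades the tagged precursor, had 12.1 and 11.2 FPKM. The ratio of Zcchc11 to Zcchc6 was 1.73 in ESCs and 2.98 in NCs.

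Of 23 further genes described as let-7 targets, 6 were at least 2-fold higher in NCs and 17 lay within 2-fold. None was at least 2-fold lower, and the median log2 ratio was 0.00. Over all expressed genes, 12.5% were higher and 10.6% lower by that limit. With both columns scaled to the same sum, 9 of the 23 were at least 2-fold higher, beside 17.7% of all genes. At a limit of 1.5-fold, 10 were higher and 4 lower, beside 20.6% and 19.4% of all genes. The 6 past 2-fold were Ccnd2, Irs2, Plagl2, Tgfbr1, Igf2bp3 and Myc. Ccnd2, a cyclin of the G1 phase, stood apart with 1.67 FPKM in ESCs compared with 51.5 in NCs, 30.8-fold higher. Irs2, an adaptor of the insulin receptor, had 7.13 FPKM in ESCs against 24.8 in NCs, and Plagl2, a zinc finger transcription factor, had 4.56 and 15.6 FPKM. Tgfbr1 encodes a TGF-β receptor and was 2.38-fold higher, and Myc was 2.18-fold higher at 10.3 FPKM in NCs. Mycn, the more abundant Myc gene in ESCs, had 73.6 FPKM there and 38.9 FPKM in NCs, 1.89-fold lower. Nr6a1, a nuclear receptor with 8 let-7 matches, the highest number found in a gene, had 23.6 FPKM in ESCs compared with 40.1 in NCs. Of the 23 genes, 15 held at least 1 match in the annotated 3′ UTR, and Ccnd2 and Myc held none.

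**Figure D3:**
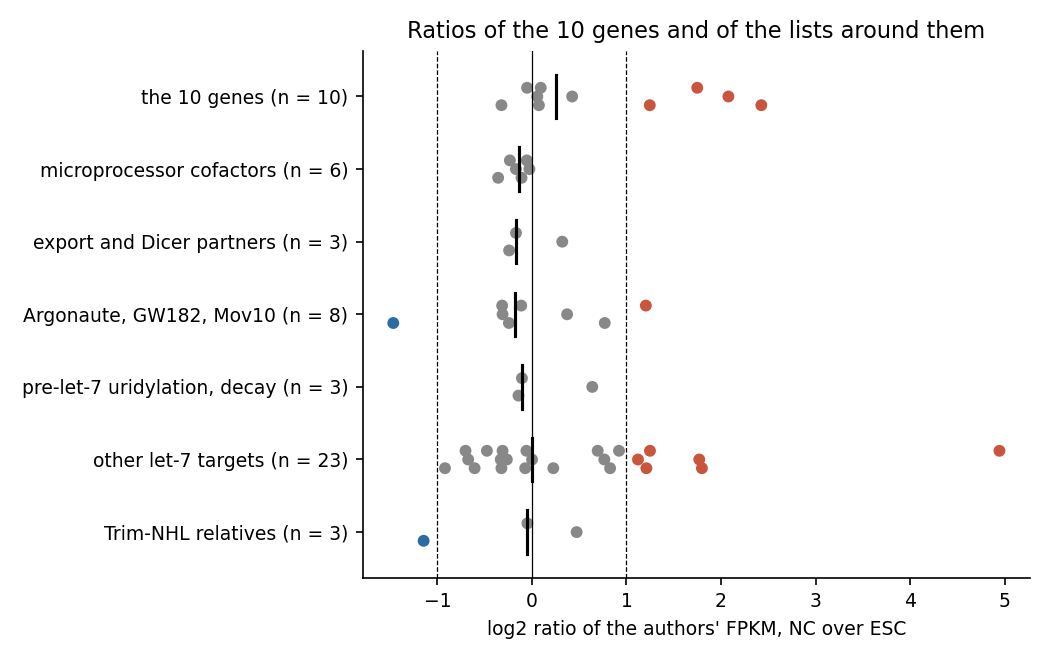
Log2 ratio of the authors' FPKM, NCs over ESCs, for each gene (points) of the 10 genes and of 6 lists around them, with a black bar at each list's median and dashed lines at 2-fold. Red points are at least 2-fold higher in NCs and blue points at least 2-fold lower, and the point far to the right is Ccnd2.

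Over all 46 genes of these lists, 7 were at least 2-fold higher and 2 at least 2-fold lower, with a median of -0.09. The shares over all expressed genes were 12.5% and 10.6%.

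To describe how mRNAs with let-7 matches behaved at large, expressed genes were grouped by the number of matches in the 3′ UTR. The median log2 ratio was -0.03 in 11230 genes without a match, 0.02 in 1011 genes with 1 and 0.14 in 143 genes with 2 or more, a group that includes Lin28a, Lin28b, Trim71, Hmga2 and Igf2bp1. The share at least 2-fold higher in NCs was 11.8%, 13.4% and 16.8% in the same order, and the share at least 2-fold lower was 10.1%, 9.20% and 9.09%. The length of the 3′ UTR moved with the grouping, with medians of 859, 2036 and 3610 bases, and its part in the shift was not tested. When the transcript with the longest 3′ UTR was read instead, the medians were -0.03, 0.02 and 0.12. The share at least 2-fold lower was then 10.1%, 9.22% and 11.7%. By median, genes with matches were thus not lower as a group after 48 h of RA.

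**Figure D4:**
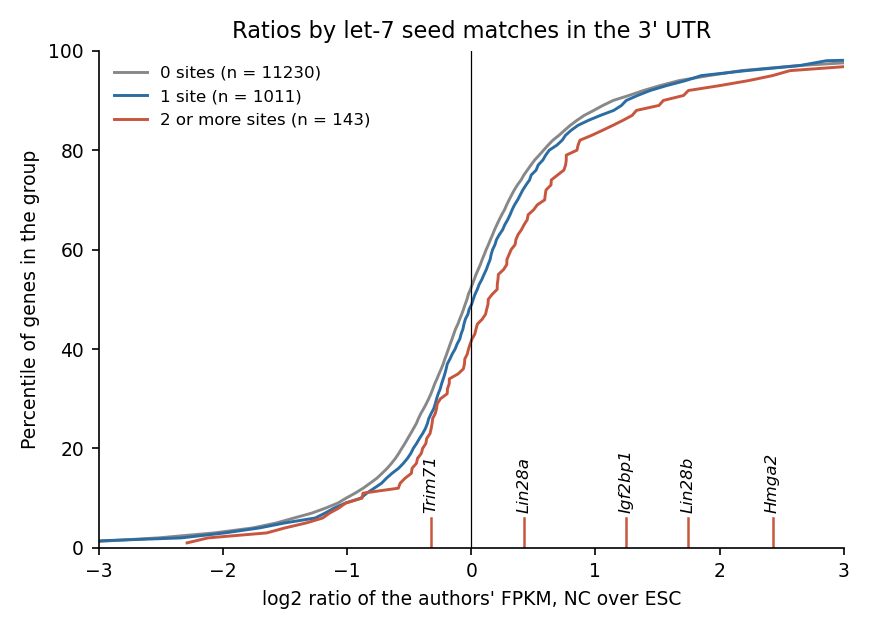
Percentile curves of the log2 ratio, NCs over ESCs, for expressed genes with 0, 1 or 2 and more let-7 seed matches in the 3′ UTR, with ticks at the ratios of the 5 genes of the 10 with 2 or more. The curve for 2 or more matches (red) lies to the right of the curve for none (grey) through the middle of the range, with medians of 0.14 and -0.03, and ticks range from Trim71 at -0.32 to Hmga2 at 2.43.

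The same grouping was made for the seed of the ESC microRNAs of the miR-290 and miR-302 clusters, which are known to oppose let-7 in these cells. Both seeds read AAGUGCU, in capitals here. They are shown because they differ from the let-7 seed and belong to microRNAs known as typical of ESCs.
miR-294-3p: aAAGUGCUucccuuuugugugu
miR-302b-3p: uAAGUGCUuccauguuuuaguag

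For this seed the median log2 ratio was -0.05 in 10508 genes without a match, 0.05 in 1521 with 1 and 0.10 in 355 with 2 or more. The share at least 2-fold lower in NCs was 10.6%, 7.50% and 3.94%. At least 2-fold higher were 11.9%, 12.6% and 13.2%. Lengths of the 3′ UTR again moved with the number of matches, with medians of 784.5, 2118 and 3727 bases. Of the 10 genes, Lin28b, Trim71 and Igf2bp1 held 1 match of this kind each. For the seeds of miR-125b (CCCUGAG) and miR-10a (ACCCUGU), the median was -0.04 without a match in both cases, 0.05 and 0.03 with 1 match, and 0.02 for both with 2 or more. Medians above those of genes without a match were therefore not particular to the let-7 seed. The share at least 2-fold lower was 10.1%, 9.70% and 8.93% for miR-125b, and 10.2%, 9.10% and 6.03% for miR-10a. A lower share with more matches was thus not particular to the seed AAGUGCU.

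The table also has rows for microRNA genes, for which RNA-seq of long RNA reads unprocessed or host transcripts. Of 11 rows for let-7 genes, 8 were listed at 0 in both conditions. Mirlet7d had 34.6 FPKM in ESCs against 57.1 in NCs, Mirlet7f-1 was listed at 0 in ESCs with 40.2 FPKM in NCs, and Mirlet7e was listed at 0 in ESCs with 5.61 FPKM in NCs. Mirlet7d and Mirlet7f-1 lie side by side on chromosome 13, and Mirlet7a-1, the third hairpin of that cluster, was listed at 0 in both conditions. Mir290 had 44.6 FPKM in ESCs compared with 9.96 in NCs. The 4 Mir302 rows had between 50.8 and 243 FPKM in ESCs and were listed at 0 in NCs. Hairpins of these 11 let-7 genes are 83 to 103 bases long, and FPKM of such short features can rest on few fragments. The microRNA rows, those of Mir290 and Mir302 included, say nothing of the mature microRNAs. Mir17hg, the longer host of the miR-17 cluster, had 15.9 FPKM in ESCs against 31.1 in NCs.

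The labels of the conditions were checked against marker genes. All 6 ESC markers were at least 2-fold lower in NCs, Pou5f1 at 832 FPKM in ESCs compared with 37.1 in NCs, and Lin28a, often counted with them, did not share that pattern. Of 6 neural markers, Pax6 (3.64 FPKM in ESCs against 65.2 in NCs) and Sox1 were at least 2-fold higher, while the neuronal genes Tubb3 and Nefl were at least 2-fold lower and Nes and Map2 lay within 2-fold. Gata6 and Sox17, markers of endoderm, were also at least 2-fold higher at low levels, Gata6 with 5.48 FPKM in NCs. Gata4 lay within 2-fold, and Afp and all 4 mesoderm markers were under 1 FPKM in both conditions. In a bulk population, more cells that express Lin28b, Hmga2, Igf2bp1 or Dgcr8 cannot be told apart from more mRNA per cell, and the part of endoderm cells in the ratios was not tested.

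Summed over the table, FPKM came to 770592 for ESCs and 628679 for NCs. Scaling both columns to the same sum would add 0.29 to every log2 ratio, which leaves the 4 genes past 2-fold as they are, brings Trim71 to -0.03 and turns Xpo5 to 0.24. The number of fragments per sample is not in the table. The worth of 1 fragment in 1 sample was estimated as the commonest value, within a preset window of low values, among genes with 1 transcript. That was 0.0138 FPKM for 1 kb of transcript in ESCs, from 74 of 201 genes in the window. In NCs it was 0.00714, from 128 of 268 genes. A value outside the window could not be found. The estimated step was larger in ESCs, where Mirlet7e and Mirlet7f-1 were listed at 0. It was smaller in NCs, where the 4 Mir302 rows were listed at 0. Whether depth had a part in any of these 0 values was not tested. Hmga2 in ESCs, the member with the fewest, then rests on about 2200 fragments, a counting error near 2.14%. That error is small beside the ratios of the 4 genes and does not cover the spread between samples.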

How the data were processed

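RNA-seq was done by the authors on 3 ESC and 3 NC samples with TruSeq libraries on an Illumina HiSeq instrument. Reads were mapped to mm10 with TopHat2 (version 2.0.8) on top of Bowtie2 (version 2.1.0), followed by Cufflinks 2.0.2, Cuffmerge and Cuffdiff. The FPKM that the authors deposited are 1 value per gene and condition. The heading of the NC column reads FPK and was taken as FPKM. The Cuffdiff version and its normalization option are not given in the sources used here. The table's fold changes, test statistics, p-values and q-values are the authors' own comparison and were not used.

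Ratios were computed without a pseudocount. A gene was expressed at 1 FPKM or more in either condition, and called at 2-fold or more. Leaving out samples and a paired fit were planned only for values of single samples. The 10 genes and all lists were chosen with earlier results of these data known. Genes were named as all 10 members, as up to 4 genes of a list with the widest ratios and those past 2-fold, and as the 3 rows nearest to each member past 2-fold. Hmga1, Mycn, Nr6a1, Ago2 and the genes beside or overlapping Dgcr8 were named after their values were seen, as were the single markers and microRNA rows given with values.

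Gene models, 3′ UTRs and shared 50-base words came from GENCODE M21 on GRCm38, the build of mm10, and 12551 of the 13290 expressed genes matched a coding gene. MicroRNAs came from RefSeq (GRCm38.p6), where miR-302b-3p stood in for the planned miR-302a-3p. Fragment worth assumed fragments of 200 bases. The ratios, the fold calls, the search for seed matches in a given sequence and the fragment worth were tested on simulated data. The software was matplotlib 3.10.9, pandas 2.3.3 and numpy 2.4.6 under Python 3.11.15.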

Additional observations from a re-analysis of the deposited data

How the results depend on the processing

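No paired analysis was possible because the table holds 1 value per condition, and for the same reason leaving out samples was not run. The 10 alternatives were pseudocounts of 0.1 and 1, 3 scalings, fold limits of 1.5 and 4, no filter on FPKM, a filter at 5 FPKM and summed rows. In all but the limit of 4, 4 of the 10 genes were past the limit in NCs and none was lower. At 4-fold 2 remained, Hmga2 and Dgcr8, and Lin28b and Igf2bp1 did not reach it. The list genes higher in NCs numbered 11 with columns scaled to the same sum, 13 at 1.5-fold and 1 at 4-fold. Those lower numbered 1 with a pseudocount of 1 or with the same sum, 6 at 1.5-fold and 0 at 4-fold. Over all genes, the share higher was 8.07% with a pseudocount of 1, 20.6% at 1.5-fold, 5.10% at 4-fold, 19.7% without a filter and 17.7% with the same sum. The share lower was 19.4% at 1.5-fold, 3.67% at 4-fold and 7.37% with the same sum, so that scaling alone moved the balance of higher to lower genes. With 8-base matches, the median of genes with 2 or more let-7 sites was 0.34, over 22 genes that include Lin28a, Trim71 and Igf2bp1. It was 0.22 over 32 genes for miR-125b and 0.37 over 5 genes for miR-10a. For miR-294 and miR-302b it was 0.05 over 13 genes, below the 0.15 of genes with 1 match. The cause was not tested for the scaling, the pseudocount, the filter and the 8-base match. Shifts with another fold limit follow from the limit itself. Counting error was estimated for the 10 genes only, and not for the microRNA rows.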
